A study of Mus musculus with 8 samples.

Results

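The Kruppel-like factors are zinc-finger transcription factors, and 10 of them with described roles in endothelium, podocytes or stress responses were followed here: Klf2, Klf3, Klf4, Klf5, Klf6, Klf9, Klf10, Klf12, Klf13 and Klf15. They were chosen by gene symbol, on gene lines that held a count for all 8 libraries, and all 10 were found among 17326 such genes. The libraries came from kidney cells of Emcn wild-type mice (EMCN+/+) and Emcn knockout mice (EMCN-/-), separated by fluorescence-activated cell sorting into glomerular endothelium and podocytes. Emcn encodes endomucin, a sialomucin of the endothelial surface. The 4 groups were wild-type endothelium, knockout endothelium, wild-type podocytes and knockout podocytes, each with 2 libraries, numbered 2 and 3 in the labels. The label EMCN-/- carries no promoter, Cre or cell type, and the age, sex, strain and sorting markers are not given in the sources used here. The labels do not say whether the libraries of a group came from separate animals, so p-values measure the spread between these libraries, which may be technical.

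Members of the family share a C-terminal DNA-binding domain of zinc fingers that recognises GC-rich and CACCC sequences, and differ in the N-terminal part that recruits activators or repressors. In endothelium, Klf2 and Klf4 are known as the factors that fluid shear stress induces through a kinase cascade of MEKK3 and ERK5 and the MEF2 factors, and they raise genes such as Thbd and Nos3. In podocytes, Klf4, Klf6 and Klf15 have been linked to the maintenance of the differentiated state, and Klf15 and Klf9 are known glucocorticoid-responsive genes. Klf6 and Klf10 are quickly induced genes in many cell types.

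The promoters of 5 members are shown: those of Klf4, Klf12, Klf15 and Klf6, on which the comparisons below mainly turn, and that of Klf2, the flow-induced factor of endothelium. Each is the 250 bases before the annotated start, written 5′ to 3′ on the gene's own strand, from RefSeq on GRCm38.p6. For Klf12 and Klf15 that start lies inside the annotated span of the gene, so their windows precede an internal start. Capitals mark matches to the CACCC box (CACCC or GGGTG), the GC box (GGGCGG or CCGCCC) and the MEF2 motif (CTA and TAG with any 4 bases between them, which reads the same on both strands).
Klf2, chr8:72318812-72319061, plus strand: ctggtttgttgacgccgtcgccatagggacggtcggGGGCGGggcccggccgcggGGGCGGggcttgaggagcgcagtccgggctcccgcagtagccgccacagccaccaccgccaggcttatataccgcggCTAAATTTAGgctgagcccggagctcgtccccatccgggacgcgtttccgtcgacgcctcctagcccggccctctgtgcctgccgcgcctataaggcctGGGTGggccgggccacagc
Klf4, chr4:55532476-55532725, minus strand: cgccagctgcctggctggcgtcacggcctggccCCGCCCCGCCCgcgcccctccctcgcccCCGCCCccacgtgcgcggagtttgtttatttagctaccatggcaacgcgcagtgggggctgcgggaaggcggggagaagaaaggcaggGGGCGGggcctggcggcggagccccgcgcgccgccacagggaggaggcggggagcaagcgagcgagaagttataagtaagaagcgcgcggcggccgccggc
Klf6, chr13:5861239-5861488, plus strand: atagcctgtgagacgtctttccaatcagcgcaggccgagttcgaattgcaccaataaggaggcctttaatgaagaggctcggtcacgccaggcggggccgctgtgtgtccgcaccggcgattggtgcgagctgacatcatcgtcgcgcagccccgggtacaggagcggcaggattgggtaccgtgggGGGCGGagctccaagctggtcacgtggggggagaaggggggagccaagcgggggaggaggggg
Klf12, chr14:100149797-100150046, minus strand: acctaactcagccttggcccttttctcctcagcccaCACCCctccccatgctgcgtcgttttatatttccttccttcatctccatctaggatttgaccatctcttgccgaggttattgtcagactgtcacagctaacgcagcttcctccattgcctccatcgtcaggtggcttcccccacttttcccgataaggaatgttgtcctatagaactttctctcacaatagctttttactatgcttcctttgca
Klf15, chr6:90462326-90462575, plus strand: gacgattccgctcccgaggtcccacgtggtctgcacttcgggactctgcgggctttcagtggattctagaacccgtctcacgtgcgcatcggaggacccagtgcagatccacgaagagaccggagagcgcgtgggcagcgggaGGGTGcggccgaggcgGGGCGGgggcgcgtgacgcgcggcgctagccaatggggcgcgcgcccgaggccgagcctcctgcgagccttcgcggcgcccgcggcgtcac
Of the 10 members, 8 matched an entry in the promoter table, and Klf5 and Klf10 did not. The GC content of the 8 windows ran from 48% in Klf12 to 78.4% in Klf3, against a median of 52.4% over all 32851 windows of that length. A CACCC box stood in 6 of the 8 windows and in 52.0% of all windows, and a GC box in 6 of the 8 and in 32.7% of all. The Klf4 window held 4 GC boxes, of which the first and the second, both CCGCCC and 5 bases apart, overlap by a base, and no CACCC box. The MEF2 motif was found in the Klf2 window alone among the 8, as CTAAATTTAG beginning 118 bases before the start, and in 3.20% of all windows. The half-site of the cAMP response element (TGACG or CGTCA) was in 6 of the 8 windows and in 17.8% of all. The AP-1 motif (TGANTCA) was in the Klf9 window, against 6.75% of all windows, and the glucocorticoid receptor half-site (AGAACA or TGTTCT) was in none of the 8, against 16.1%. These matches describe the letters of the windows and were not tested against the measured levels.

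The gene lines with all 8 counts summed to between 10478956 and 17386042 counts per library. Levels are given as CPM, counts relative to library totals that were scaled by the TMM method. Emcn stood at 1972 and 1828 CPM in wild-type endothelium and at 173 and 179 CPM in knockout endothelium, and its adjusted p was 0.0205 in endothelium and 0.0321 in podocytes by edgeR's quasi-likelihood test. The 13 endothelial markers summed to between 9941 and 13053 CPM in the endothelial libraries and to between 608 and 909 CPM in the podocyte libraries. Of 12 podocyte markers 8 were measured, and they summed to between 8351 and 18381 CPM in podocytes and to between 1256 and 2316 CPM in endothelium. Replicate 3 of wild-type endothelium stood apart on the second principal component, which held 18.6% of the variance. Mitochondrial genes took between 10.1% and 26.2% of the counts, with a higher share in replicate 3 than in replicate 2 of every group. Tubule markers were present in every library, and their values are given beside the genotype comparison.

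Within each group the members covered a wide range of levels. Per kilobase of the longest annotated transcript, Klf6, an early-response member, was the most abundant of the 10 in all 4 groups. It stood at 188.7 ± 25.9 CPM per kb in wild-type endothelium, 89.1 ± 9.99 in knockout endothelium, 225.1 ± 18.5 in wild-type podocytes and 206.4 ± 54.6 in knockout podocytes (SD, n = 2 each). Its range over the 2 libraries did not touch that of the next member in any group. In wild-type endothelium Klf2 followed with 47.8 ± 0.23 CPM per kb and Klf10, a gene induced by transforming growth factor beta, with 39.3 ± 0.70, and these neighbours were also separated. Klf4, Klf3, Klf15, Klf12 and Klf9 came next, from 26.9 down to 10.3 CPM per kb, and each overlapped its neighbour in that order. Klf13 (7.92 CPM per kb) and Klf5 (2.44 CPM per kb) closed the order, each apart from the member above it. In knockout endothelium Klf15 moved behind Klf12, Klf9 and Klf13 by the longest transcript, at 5.10 ± 1.91 CPM per kb. Klf5 was again last with 1.18 ± 0.80.

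The order differed in podocytes. Klf10 (28.9 ± 0.87 CPM per kb), Klf2 (25.3 ± 22.4) and Klf15 (25.1 ± 2.34) followed Klf6 in wild-type podocytes. The wide range of Klf2 overlapped those of Klf10 and Klf15, which did not overlap each other. Klf12, a repressor, was last with 3.21 ± 0.13 CPM per kb. In knockout podocytes the ranges from Klf10 to Klf4 overlapped from neighbour to neighbour, Klf13 and Klf5 overlapped, and Klf12 was last with 2.69 ± 0.28 CPM per kb. The most abundant member stood above the least abundant by a ratio between 70.03 and 77.3 in the 4 groups. With the median transcript length in place of the longest, Klf6 stayed first in all groups and Klf5 last in endothelium. Klf2 then moved to rank 7 in wild-type endothelium, and Klf5 took the last place in podocytes. Klf15 was at rank 9 in both endothelial groups with that length, so it did not move between them.

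**Figure D1:**
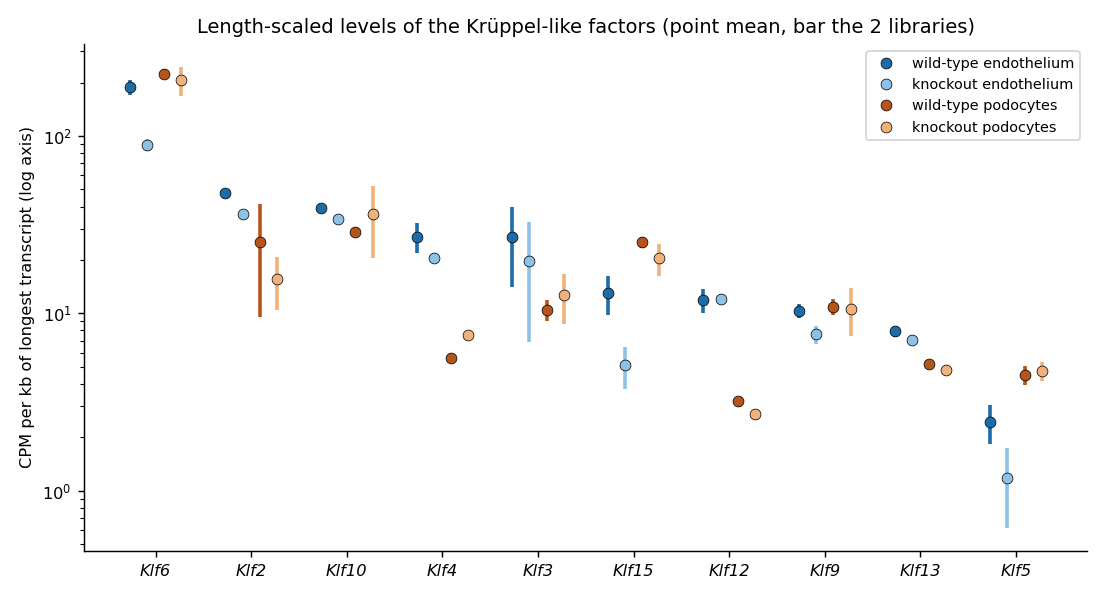
Level of each of the 10 Kruppel-like factors in CPM per kb of its longest transcript, on a log axis, ordered by wild-type endothelium; points are means of the 2 libraries and bars span them. Klf6 lies above all other members in every group, from 89.1 to 225.1 CPM per kb, and Klf12 and Klf4 lie lower in both podocyte groups than in both endothelial groups.

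Klf4 and Klf12 were the members that differed between the sorted cell types in both genotypes, with higher levels in endothelium. Klf15, Klf6 and Klf5 were higher in podocytes than in endothelium among the knockout libraries. In wild type 2 of 10 members passed the threshold, both higher in endothelium, where 8.99% of the 16477 genes tested passed, 4.26% as higher and 4.73% as lower. In knockout 5 of 10 passed, 2 as higher in endothelium and 3 as lower, where 10.4% of all genes passed, 4.28% as higher and 6.09% as lower. Scaled by library size only, the share of higher calls over all genes in knockout was 60.59% in place of 41.25%, and 3 members passed there (Klf4, Klf12 and Klf15). The members' median log2 fold change, endothelium against podocytes, was 0.53 in wild type and 0.24 in knockout, beside −0.01 for all genes in both. In bulk RNA of sorted cells, fewer cells of a type and less RNA per cell cannot be told apart.

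Klf4, the flow-induced factor that is also known from podocytes, measured 65.9 and 97.3 CPM in wild-type endothelium and 58.2 and 66.5 CPM in knockout endothelium. In podocytes it measured 17.95 and 15.97 CPM in wild type and 22.4 and 23.2 CPM in knockout. All endothelial libraries were thus above all podocyte libraries. The log2 fold change, endothelium against podocytes, was 2.27 ± 0.26 (SE) in wild type, with an adjusted p of 0.000301 by edgeR's quasi-likelihood test, and 1.45 ± 0.25 in knockout, with an adjusted p of 0.00417. These differences correspond to 4.81-fold and 2.73-fold, and both passed in all 13 alternative fits.

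Klf2, its close relative in the response to flow, measured 88.0 and 88.6 CPM in wild-type endothelium and 65.6 and 68.9 CPM in knockout endothelium. In podocytes it measured 76.0 and 17.6 CPM in wild type and 38.4 and 19.2 CPM in knockout. The 2 wild-type podocyte libraries differed 4.32-fold, while the endothelial replicates lay close together. The 13 endothelial markers summed to 909 CPM in the wild-type podocyte library with the high Klf2 level and to 727 CPM in the other. The log2 fold change, endothelium against podocytes, was 0.92 ± 0.53 (SE) in wild type (adjusted p = 0.412 by edgeR's quasi-likelihood test) and 1.22 ± 0.54 in knockout (adjusted p = 0.208). Without replicate 2 of the wild-type podocytes the wild-type difference was 2.34, with an adjusted p of 0.0193.

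Of 14 genes listed upstream of Klf2 and Klf4 (MEKK3, CCM, ERK5 and MEF2), 13 were tested. The list was not divided into activators and inhibitors, so its calls give no direction for the cascade. In endothelium 4 were higher in wild type and 3 in knockout, with none lower. Over all genes 4.26% and 4.28% were called higher, and 4.73% and 6.09% lower. Heg1, a membrane protein that anchors the CCM complex, was higher by 2.33 on the log2 scale in wild type (edgeR adjusted p = 0.000643) and by 2.21 in knockout. Mef2c, a MEF2 factor, was higher by 2.17 and 1.97, and Hdac7, a class IIa histone deacetylase that binds MEF2, by 1.75 and 1.71. Pdcd10, a CCM protein, was higher in wild type by 0.77. The list's median was 0.59 in wild type and 0.48 in knockout.

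Of 14 endothelial genes reported to be raised by Klf2 or Klf4, 8 were tested. In each genotype 4 of them were higher in endothelium: Tek, the angiopoietin receptor (4.16 on the log2 scale in wild type), S1pr1, a sphingosine-1-phosphate receptor (4.20), Thbd, thrombomodulin (3.40), and Kank3 (3.26). Podxl, which encodes a sialomucin abundant in podocytes, was lower in endothelium in both genotypes, by −2.58 and −1.94 on the log2 scale, and Ptgds, a prostaglandin D synthase, was lower in knockout by −2.97. Of 12 genes reported to be lowered by Klf2 or Klf4, 10 were tested, and Edn1, the endothelin-1 gene, and Esm1, a tip-cell gene, were higher in endothelium in both genotypes, by 3.31 and 4.75 on the log2 scale in wild type. Cxcl12 and F3 were lower in endothelium in both genotypes, and Ccl2 and Angpt2 in knockout. Over all genes 4.26% were called higher and 4.73% lower in wild type, and 4.28% and 6.09% in knockout. The raised and the lowered list thus both held genes higher and genes lower in endothelium, and none of their tested genes passed the threshold between genotypes.

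Klf12, a repressor that recruits CtBP, measured 81.2 and 59.3 CPM in wild-type and 66.1 and 75.5 CPM in knockout endothelium. It measured 18.4 and 19.5 CPM in wild-type and 17.0 and 14.7 CPM in knockout podocytes. The cell types did not overlap in either genotype. Its log2 fold change, endothelium against podocytes, was 1.89 ± 0.25 (SE) in wild type and 2.16 ± 0.25 in knockout, or 3.71-fold and 4.46-fold, with adjusted p-values of 0.000691 and 0.000369 by edgeR's quasi-likelihood test, and both passed in all 13 alternative fits.

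Klf3, the other CtBP-recruiting member, varied most between endothelial replicates. It measured 206 and 73.7 CPM in wild-type endothelium, 170 and 36.1 CPM in knockout endothelium, 62.4 and 47.3 CPM in wild-type podocytes and 87.1 and 45.6 CPM in knockout podocytes. Replicate 2 was above replicate 3 in each group, 2.80-fold in wild-type and 4.70-fold in knockout endothelium. Its differences between cell types were 1.35 ± 0.65 (SE) on the log2 scale in wild type (edgeR adjusted p = 0.292) and 0.63 ± 0.64 in knockout (adjusted p = 0.618). Fitted on the wild-type libraries alone, the wild-type difference was 1.45 with an adjusted p of 0.0211. None of the 9 tested cofactors of the family passed the threshold in any comparison. Over all genes 8.99% passed between cell types in wild type and 10.4% in knockout, and 0.00607% between genotypes in each cell type.

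Klf15, which mediates glucocorticoid actions in podocytes, measured 66.4 and 58.2 CPM in wild-type podocytes and 61.3 and 40.0 CPM in knockout podocytes. It measured 40.3 and 24.2 CPM in wild-type endothelium and 16.005 and 9.29 CPM in knockout endothelium. Podocyte libraries lay above endothelial libraries in each genotype. The log2 fold change, endothelium against podocytes, was −1.999 ± 0.36 (SE) in knockout, with podocytes 3.996-fold higher and an adjusted p of 0.00495 by edgeR's quasi-likelihood test, and it passed in all 13 alternative fits. In wild type it was −0.95 ± 0.34 with an adjusted p of 0.140.

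Klf6, linked to mitochondrial function in podocytes, was high in both cell types. It measured 1006 and 896 CPM in wild-type podocytes, 1035 and 709 CPM in knockout podocytes, 719.7 and 874 CPM in wild-type endothelium and 347 and 406 CPM in knockout endothelium. The knockout endothelial libraries held the lowest values of the 8. The difference between cell types was −1.21 ± 0.27 (SE) on the log2 scale in knockout, or 2.32-fold higher in podocytes, with an adjusted p of 0.0171 by edgeR's quasi-likelihood test, and −0.25 ± 0.27 in wild type (adjusted p = 0.709). The knockout call was lost without replicate 2 (adjusted p = 0.131) or replicate 3 (0.0600) of knockout endothelium, without replicate 2 of knockout podocytes (0.114), with scaling by library size only (0.0590) and with only the knockout libraries fitted (0.0566).

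Klf5, a growth-associated epithelial member, was the least abundant of the 10 in endothelium, with counts from 24 to 141 per endothelial library. It measured 13.2 and 17.0 CPM in wild-type podocytes, 17.8 and 13.9 CPM in knockout podocytes, 6.15 and 10.2 CPM in wild-type endothelium and 5.85 and 2.06 CPM in knockout endothelium. Every podocyte library was above every endothelial library. The log2 fold change, endothelium against podocytes, was −1.99 ± 0.49 (SE) in knockout (edgeR adjusted p = 0.0276), with podocytes 3.98-fold higher, and −0.88 ± 0.47 in wild type (adjusted p = 0.362). The knockout call was lost without replicate 3 of knockout endothelium (0.148), without replicate 2 of knockout podocytes (0.118), with scaling by library size only (0.0950), at a mean of at least 5 CPM (0.0525) and with only the knockout libraries fitted (0.0664).

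Klf9, Klf10 and Klf13 recruit the Sin3 corepressor and varied least of the 10 around their own mean on the log2 scale. Klf9 ran from 30.1 to 62.0 CPM and Klf13, a factor first known from T cells, from 28.5 to 54.4 CPM over the 8 libraries. Klf10 ran from 62.3 to 159 CPM, and both of these extremes were knockout podocyte libraries. None of the 3 passed the threshold between cell types in either genotype, with log2 differences from −0.07 to 0.62 in wild type and from −0.48 to 0.57 in knockout. Klf13 was higher in endothelium without overlap in both genotypes, with an adjusted p of 0.146 in wild type and 0.156 in knockout by edgeR's quasi-likelihood test. At a mean of at least 5 CPM its knockout difference was 0.73 with an adjusted p of 0.0358.

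Counted by the libraries alone, 6 members in wild type (Klf2, Klf3, Klf4, Klf10, Klf12 and Klf13) were higher in every endothelial than in every podocyte library, and Klf5, Klf6 and Klf15 were lower in each. Over all genes tested 21.2% were higher and 25.7% lower without overlap. In knockout, 4 members were higher without overlap (Klf2, Klf4, Klf12 and Klf13) and the same 3 lower, beside 27.3% and 27.8% of all genes. The members counted as lower without overlap in both genotypes were Klf5, Klf6 and Klf15, and those counted as higher in both were Klf2, Klf4, Klf12 and Klf13.

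**Figure D2:**
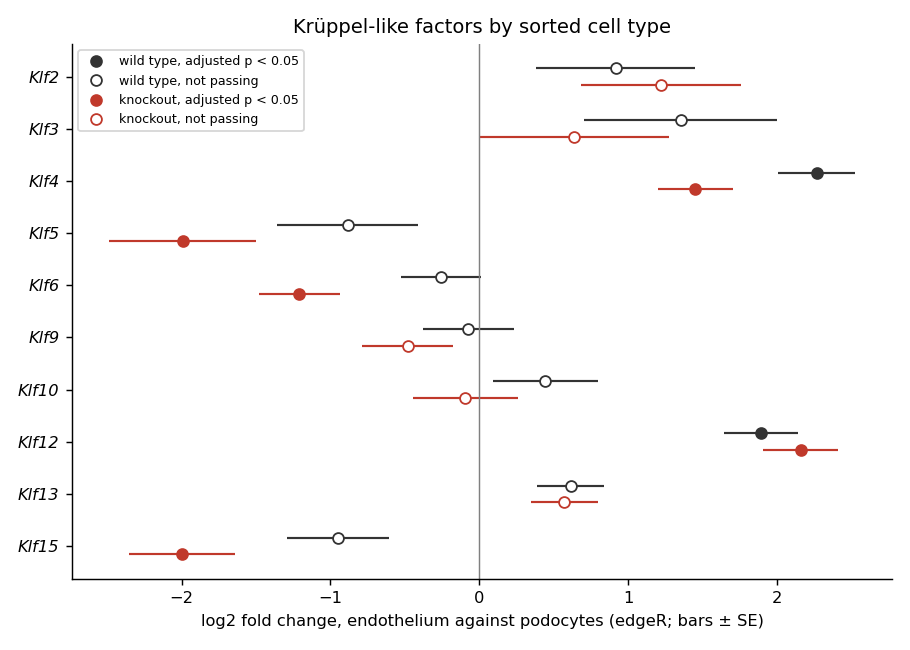
Log2 fold change of each Kruppel-like factor, endothelium against podocytes, in wild type and in knockout from edgeR, with bars of 1 SE; filled points passed the threshold on the adjusted p. Klf4 and Klf12 are filled on the endothelial side in both genotypes, and Klf5, Klf6 and Klf15 are filled on the podocyte side in knockout.

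Among 14 other Kruppel-like and Sp factors on complete lines, Klf7 was the one higher in endothelium in both genotypes. It measured 67.5 and 70.9 CPM in wild-type endothelium against 18.7 and 17.0 CPM in wild-type podocytes, a log2 difference of 1.95 ± 0.22 (SE) with an edgeR adjusted p of 0.000257, and 1.56 in knockout. Sp6 was lower in endothelium in both genotypes, by −3.67 and −3.20 on the log2 scale, and Sp2 in wild type, by −1.18. Over all genes 4.26% were called higher and 4.73% lower in wild type, and 4.28% and 6.09% in knockout. None of the 14 passed between genotypes, where 0.00607% of all genes did in each cell type.

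Between genotypes no member passed the threshold in either cell type. In knockout endothelium Klf6 stood at 47.2% and Klf15 at 39.2% of the wild-type mean, and 9 of the 10 members had a mean fold change below 0. By edgeR's quasi-likelihood test 0 of 10 members passed at an adjusted p of 0.05, where 0.00607% of all genes did, which is 1 gene, Emcn itself. At an unadjusted p under 0.05 there were 2 members, Klf6 and Klf15, both lower, where 5.49% of all genes were under it and 2.88% were lower. DESeq2 also called 0 of 10 members, and 10 genes over all.

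The log2 fold change of Klf6 in knockout against wild-type endothelium was −1.08 ± 0.27 (SE; unadjusted p = 0.00238, adjusted p = 0.716, edgeR), which placed it 21st of 16477 genes by p. The 2 knockout libraries, at 347 and 406 CPM, were below the 2 wild-type libraries, at 719.7 and 874 CPM. Over its 12 alternatives the value ran from −1.22 to −0.75 and the adjusted p from 0.125 to 0.999994. Without replicate 3 of wild-type endothelium, the library that stood apart, it was −0.94.

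For Klf15 the change was −1.35 ± 0.35 (SE; unadjusted p = 0.00316, adjusted p = 0.716, edgeR), the 33rd smallest p. Its knockout libraries, at 16.005 and 9.29 CPM, were below its wild-type libraries, at 40.3 and 24.2 CPM. The alternatives gave −1.80 to −0.94, with adjusted p-values from 0.137 to 0.999994, and the value without replicate 3 of wild-type endothelium was −1.67. Klf5 measured −1.04 ± 0.49 (SE; adjusted p = 0.716, edgeR), on 24 and 83 counts in the knockout libraries, and without replicate 3 of wild-type endothelium or replicate 3 of knockout endothelium it was −0.63 and −0.49.

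The other members differed by less in endothelium, and none of them passed the threshold. Their log2 values were −0.44 for Klf3 and Klf9, −0.39 for Klf2 and Klf4, −0.21 for Klf10, −0.16 for Klf13 and 0.01 for Klf12. With 1 endothelial library left out in turn, the value of Klf3 ran from −1.96 to 0.47 and that of Klf12 from −0.21 to 0.24, so the direction of both rested on single libraries. Klf2, Klf5, Klf6, Klf9, Klf10 and Klf15 were lower in both knockout libraries than in both wild-type libraries, which is 6 of 10 beside 19.7% of all genes, and 0 of 10 were higher in this way, beside 24.8%. Of all genes 49.7% had a change below 0. The median of the 10 members was −0.42 beside 0.01 for all genes tested. Scaling by library size only moved the median of all genes by 0.33 and put 7 of 10 members below 0, with a members' median of −0.09. With DESeq2's size factors all 10 were below 0, and at a mean of at least 5 CPM 8 were. The summed level of the 10 members was 1425.9 and 1442.6 CPM in wild-type endothelium and 923.6 and 835.7 CPM in knockout endothelium, and Klf6 alone accounted for 797 CPM of these on average in wild type and 377 CPM in knockout.

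**Figure D3:**
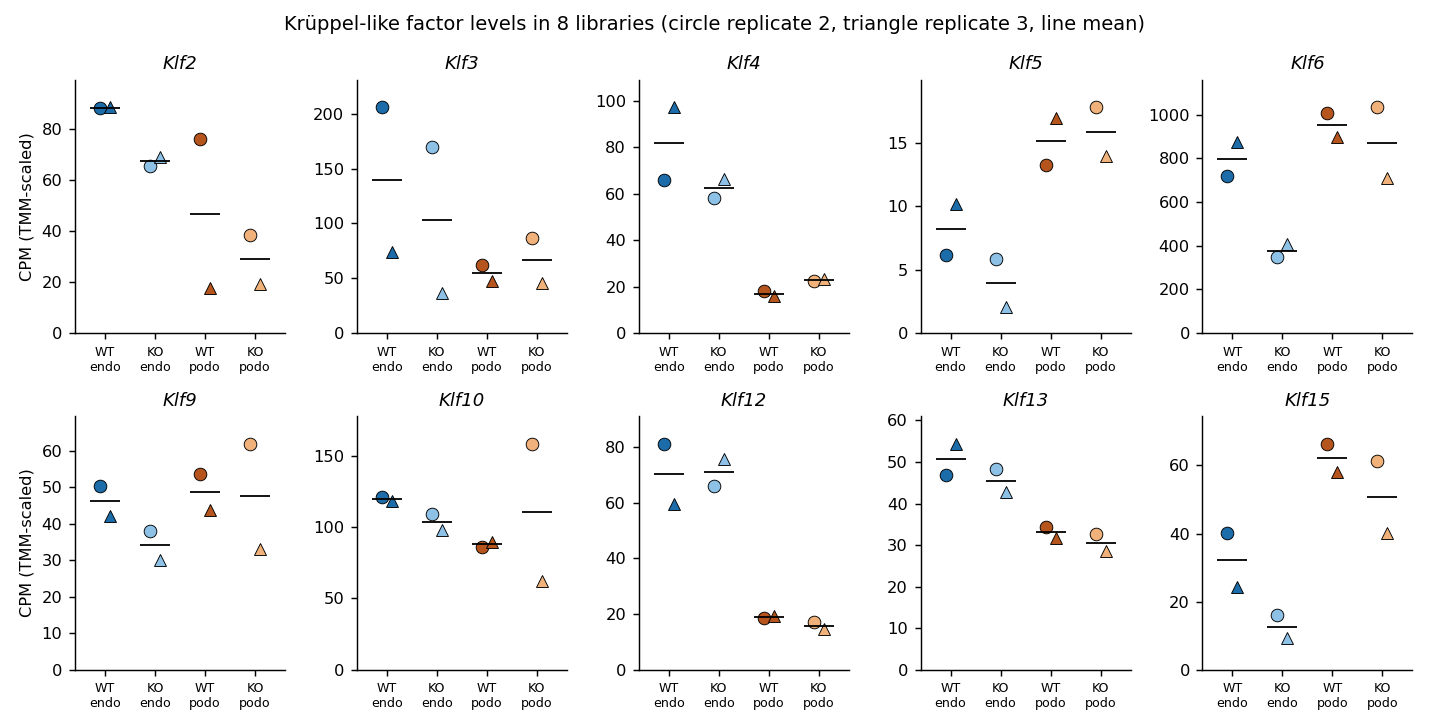
TMM-scaled CPM of the 10 Kruppel-like factors in the 8 libraries, 1 panel a gene, each from 0 on a linear axis; circles are replicate 2, triangles replicate 3 and lines group means. Both Klf6 and both Klf15 points of knockout endothelium lie below those of wild-type endothelium, Klf3 splits by replicate in endothelium, and 1 wild-type podocyte library carries a Klf2 level of 76.0 CPM.

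In podocytes the members were spread on both sides of 0. Of 10 members 0 passed, where 0.00607% of all genes did (Emcn), and 0 were under an unadjusted p of 0.05 by edgeR, where 4.43% were. DESeq2 called 0 of 10 members there and 12 genes over all. Klf4 was higher in both knockout podocyte libraries than in both wild-type ones, by 0.43 ± 0.25 (SE) on the log2 scale, and Klf12 was lower, by −0.26 ± 0.24, both with an edgeR adjusted p of 0.978, and 15.1% and 16% of all genes were apart in these directions. Klf2 measured −0.70 ± 0.53 there, Klf10 0.33 ± 0.35, Klf15 −0.30 ± 0.34 and Klf6 −0.13 ± 0.27. The value of Klf2 turned to 0.75 without replicate 2 of wild-type podocytes. With 1 podocyte library left out in turn, that of Klf10 ran from −0.50 to 0.85 and that of Klf6 from −0.43 to 0.12, so both also changed sign. The members' median was −0.07, with 6 of 10 below 0, beside a median of 0.02 and 47.8% below 0 for all genes, and it was 0.07 without replicate 2 of wild-type podocytes, 0.18 without replicate 3 and −0.40 without replicate 2 of knockout podocytes. With scaling by library size only it was 0.04.

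**Figure D4:**
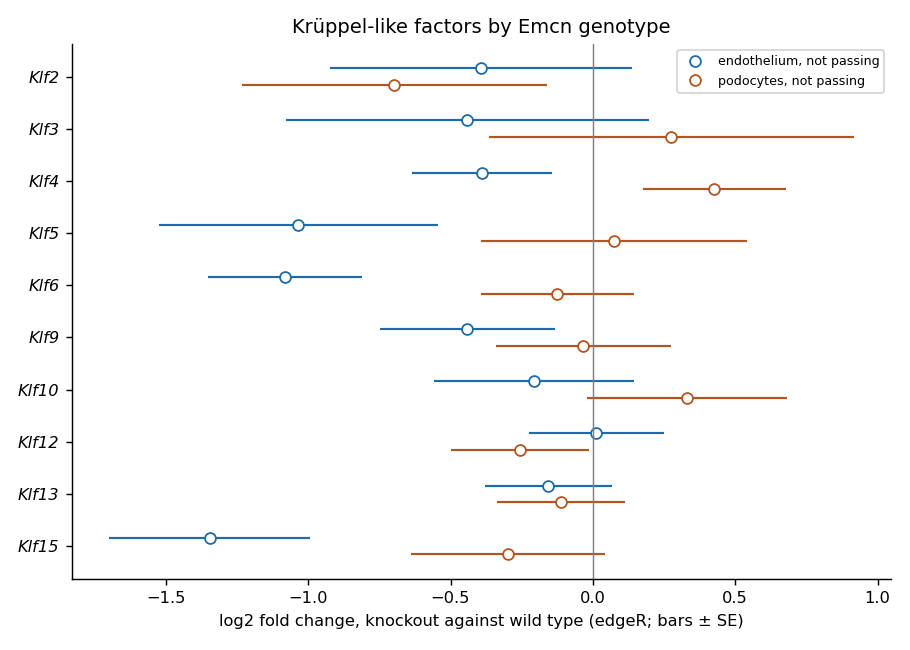
Log2 fold change of each Kruppel-like factor, knockout against wild type, in endothelium and in podocytes from edgeR, with bars of 1 SE. All points are open because none passed the threshold; the endothelial points of Klf15, Klf6 and Klf5 lie farthest from 0, at −1.35, −1.08 and −1.04.

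The genotype effect in endothelium minus that in podocytes tests whether these effects differ. No gene passed this interaction test over all genes, and 0% of genes were called. By edgeR 2 of 10 members, Klf6 and Klf4, were under an unadjusted p of 0.05, both below 0, which 2.6% of all genes were and 1.46% in that direction. Klf6 measured −0.96 ± 0.38 and Klf4 −0.82 ± 0.35 (SE), with an edgeR adjusted p of 0.9999965 for each. DESeq2 called 0 genes in this test. Klf15 measured −1.05 ± 0.49 and Klf5 −1.11 ± 0.67, and 8 of 10 members were below 0, with a median of −0.63 beside −0.03 and 52.6% below 0 for all genes. The same contrast is the difference between the cell type effects in knockout and in wild type, so the calls of Klf5, Klf6 and Klf15 in knockout and not in wild type are not shown to differ between genotypes.

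Several other gene lists had medians below 0 in the same endothelial comparison. Immediate-early genes, such as the Fos, Jun and Egr families, are induced within minutes of stimulation, and 17 of 20 were tested. In knockout against wild-type endothelium 17 of 17 were below 0, 14 without overlap and 6 at an unadjusted p under 0.05, with a median log2 change of −0.64 and 0 past the threshold by edgeR. Over all genes 49.7% were below 0, 19.7% were lower without overlap and 2.88% were lower at that unadjusted p. Their summed level was 11804.6 and 14289.7 CPM in wild-type endothelium and 8743.6 and 8481.6 CPM in knockout endothelium. In podocytes 7 of 17 were below 0 and the sums were 17779.9 and 15455.4 CPM in wild type and 20316.6 and 11938.6 CPM in knockout. With library size only, 16 of 17 were below 0 in endothelium.

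Glucocorticoid response genes, of which 10 of 15 were tested, had 9 of 10 below 0 in knockout endothelium, beside 49.7% of all genes. Their median was −0.70, with 0 past the threshold. Without overlap 5 were lower and 1 higher, beside 19.7% and 24.8% of all genes. At an unadjusted p under 0.05 by edgeR 2 were lower, beside 2.88%. Their sums were 4736 and 4824 CPM in wild-type and 3388 and 3546 CPM in knockout endothelium, and the podocyte sums were 2776 and 2556 CPM in wild type and 2618 and 2104 CPM in knockout. Dusp1 is on this list and on the immediate-early list, so these sums are not separate. It measured 2023 and 2196 CPM in wild-type and 1563 and 1189 CPM in knockout endothelium. Between cell types Sgk1, a glucocorticoid-induced kinase, was higher in endothelium in both genotypes, by 3.12 and 3.53 on the log2 scale, and Errfi1, an inhibitor of the EGF receptor, was lower in knockout endothelium than in knockout podocytes, by −2.16. Of the 17 immediate-early genes 2 (Fosb and Fosl1) were lower in endothelium than in podocytes in wild type and 10 in knockout, led by Fosb, Atf3, Egr2 and Btg2 with log2 differences of −2.80, −2.03, −1.86 and −1.48. Over all genes 4.73% were called lower in wild type and 6.09% in knockout. The difference between the genotypes is not shown, since the interaction test called 0 of the 17. In that test 2 of 17 were at an unadjusted p under 0.05 by edgeR, both below 0, beside 1.46% of all genes in that direction. Of the 17, 16 were below 0, with a median of −0.74, beside 52.6% and −0.03 for all genes.

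Markers of the distal tubule and collecting duct, cells outside the glomerulus, were also present in the endothelial libraries. Of 10 such markers 6 were measured, none at 0, and they summed to 8328 and 17393 CPM in wild-type endothelium and to 3189 and 7669.6 CPM in knockout endothelium, with 6 of 6 fold changes below 0, beside 49.7% of all genes, 4 of them without overlap, beside 19.7%, and a median of −1.18. The groups overlapped for the aquaporin genes: Aqp2 measured 437 and 2142 CPM in wild-type and 529 and 300.4 CPM in knockout endothelium, and Aqp3 measured 188 and 657 CPM in wild type and 225 and 174 CPM in knockout. In podocytes they summed to 6583 and 13847 CPM in wild type and to 5684 and 9663 CPM in knockout. The 4 measured proximal tubule markers summed to between 72.0 and 125.1 CPM in endothelium and to between 164.7 and 1059.2 CPM in podocytes. The 5 tested immune markers summed to between 26.7 and 58.1 CPM in endothelium and between 85.2 and 121.6 CPM in podocytes. Csf1r, a macrophage receptor, made up 67.9 to 106.9 CPM of the podocyte sums and 4.99 to 12.3 CPM of the endothelial ones, while Lyz2, the lysozyme of myeloid cells, was higher in endothelium than in podocytes in each genotype on average. The 7 tested mesangial, mural and juxtaglomerular markers summed to 667 and 438 CPM in wild-type endothelium and to 537 and 317 CPM in knockout endothelium. Their median log2 change was 0.73, opposite in sign to the change of the sum, with 4 of 7 above 0, 3 higher and 1 lower without overlap and 2 at an unadjusted p under 0.05, both higher. Over all genes 24.8% were higher and 19.7% lower without overlap, and 5.49% were under that p. The 8 measured podocyte markers were all below 0 in knockout against wild-type endothelium, 0 of them without overlap, with a median of −0.49, and summed to 2316 and 1256 CPM in wild type and to 1469.6 and 1477 CPM in knockout. The part of the tubule, mesangial, immune and podocyte transcripts, of the immediate-early genes and of the mitochondrial share in the values of Klf5, Klf6 and Klf15 was not tested. Without the mitochondrial genes the fold changes in knockout endothelium were −1.10 for Klf6 and −1.37 for Klf15.

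**Figure D5:**
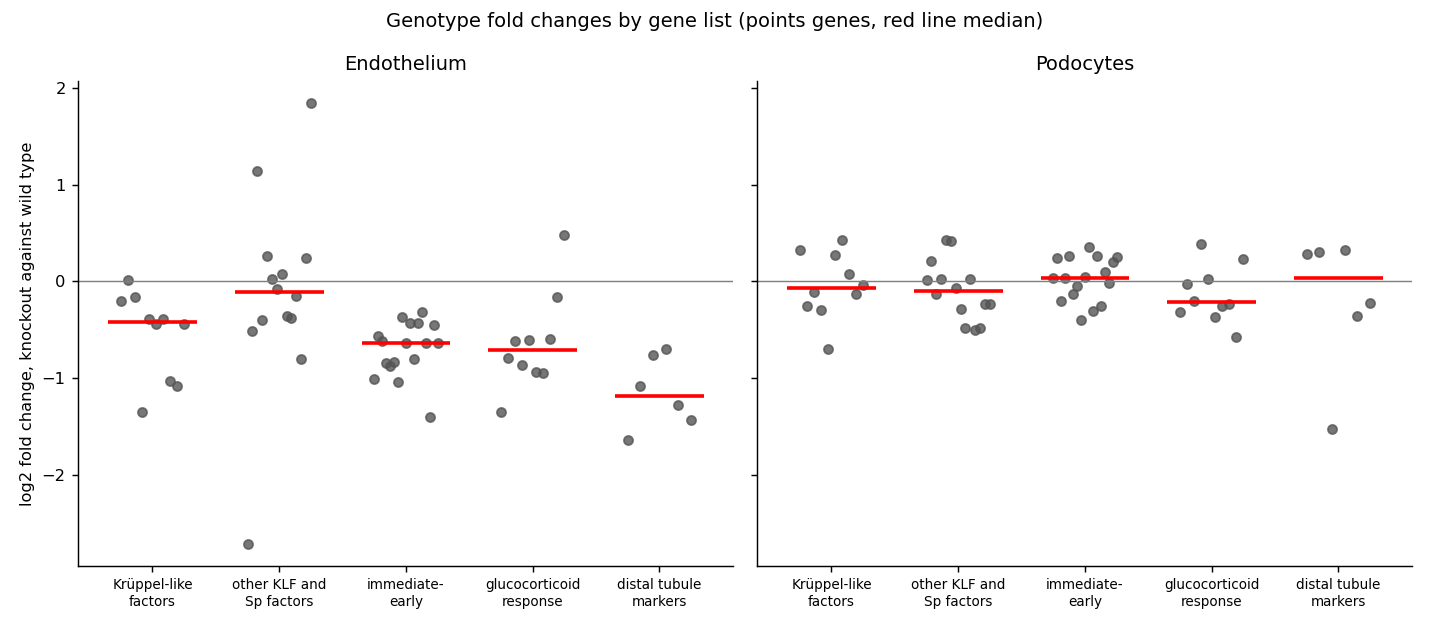
Log2 fold change, knockout against wild type, of the genes of 5 lists in endothelium (left) and podocytes (right); each point is a gene and red lines are list medians. In endothelium the medians are −0.42 for the 10 Kruppel-like factors, −0.64 for immediate-early genes, −0.70 for glucocorticoid response genes and −1.18 for distal tubule markers, while other Kruppel-like and Sp factors have a median of −0.11.

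The podocyte genes linked to Klf4, Klf6 or Klf15 were tested for 8 of 12 members. In wild type 6 were higher in podocytes than in endothelium, among them Synpo and Wt1 with log2 differences, endothelium against podocytes, of −3.83 and −3.60, and 5 in knockout, where 4.73% and 6.09% of all genes were called in that direction. In knockout against wild-type podocytes all 8 had a fold change below 0, beside 47.8% of all genes, with a median of −0.52, and 0 passed the threshold. This list shares genes such as Synpo, Wt1 and Podxl with the podocyte markers, whose sums were 18381 and 11845 CPM in wild-type podocytes and 8351 and 11020 CPM in knockout podocytes.

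Genes whose pattern over the 8 libraries lay nearest to each member were found by the root mean square difference of log2 CPM centred on each gene's own mean, among 10080 genes of at least 5 CPM. Klf4 was nearest to Ddah2 (0.18), Trim16 (0.19) and Klf7 (0.20), and Klf12 to Nrp1, a neuropilin (0.14), Elf1, an ETS factor (0.15), and Lypd6 (0.17). Klf4 itself varied with a root mean square of 0.95 and Klf12 with 1.02 around their means. Klf6 was nearest to Dnajb1, a heat shock cochaperone (0.16), Eif1a (0.17) and Ppm1h (0.17), and Dnajb1 measured 1632 and 2094 CPM in wild-type endothelium and 746 and 1144 CPM in knockout endothelium. Klf15 was nearest to E2f5 (0.19) and to the cochaperones Dnaja4 (0.20) and Bag1 (0.20), and Klf5 to Rdh10 (0.23), Acot3 (0.24) and Dmrt2 (0.27).

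Klf3, with its split between replicates in endothelium, was nearest to Trim47 (0.21), Arrdc2 (0.26) and Filip1l (0.26). Trim47 showed the same order, with 319 and 115 CPM in wild-type endothelium and 303 and 62.8 CPM in knockout endothelium. For Klf2 the nearest genes, Cnrip1 (0.41), Mill2 (0.42) and Lcp1 (0.43), were farther away than for any other member. Klf9 was nearest to Fbxo21, Gpatch8 and Pygo2 (0.10 to 0.11), Klf10 to Sinhcaf, Dapp1 and Lrch3 (0.14 to 0.16) and Klf13 to Ostf1, Bin3 and Arrdc4 (0.06 to 0.09), and these 3 members varied least around their own means, by 0.33, 0.37 and 0.32. Among pairs of members, Klf9 and Klf10 were nearest (0.32), followed by Klf10 and Klf13 (0.36), Klf6 and Klf9 (0.39), Klf4 and Klf12 (0.40) and Klf5 and Klf15 (0.45). The distance is not scaled by how much a gene varies, so members that vary little can lie near each other without sharing a pattern. The distances from Klf10 to Klf9 and to Klf13 were near the own variation of these 3 members. Klf4 and Klf12 varied by 0.95 and 1.02 around their means, and Klf5 and Klf15 by 0.96 and 0.95, well above their distances. Libraries share depth and makeup across genes, so these distances are descriptions of the 8 libraries.

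On GRCm38.p6 the annotated spans of Klf3, Klf9, Klf10, Klf12 and Klf13 overlap those of other genes, such as Gm16260 and Gm41231 for Klf12. Whether exons overlap was not examined. The use of strand in counting is not given in the sources used here, so how any reads from shared bases were counted is not known. Klf2, Klf4, Klf5, Klf6 and Klf15 overlap no other annotated gene.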

How the data were processed

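Polyadenylated RNA of sorted mouse kidney cells was sequenced from TruSeq libraries, per the labels' protocols. The values are the raw counts that the authors deposited, 1 per gene and library, per the file headers. The submitters' processing notes name DESeq2 and mm10, without their role, and the aligner, counter and use of strand are not given in the sources used here. Of 22533 gene lines, 17326 held all 8 counts, and 5207 short lines (23.11%) were left out. In 3 columns the short lines left empty cells.

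Counts were analysed with edgeR 4.0.16 in R 4.3.3 (filterByExpr by group, TMM, 1 mean per group over all 8 libraries, quasi-likelihood F test). Benjamini-Hochberg adjustment covered the 16477 tested genes, and calls were made at 0.05. SE is the fold change (log2) over the root of F. Similar patterns used log2 CPM with a prior count of 2. The steps were tested on simulated data. Transcript lengths came from GENCODE M21 and positions from RefSeq.

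The members and lists were chosen with earlier results of these data known. The text names the members, list genes past the threshold (up to 4 a list and direction) and Sp and other Kruppel-like factors of at least 5 CPM. It also names markers whose level stands beside a result, Dusp1 as a gene on more than 1 list, Emcn and the 3 most similar genes a member. Alternatives were DESeq2 1.42.0, other scalings and filters, the replicate number as a block, fits of the compared libraries only and each library left out. A crossed block and leaving out the mitochondrial genes were added after seeing the data.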

Additional observations from a re-analysis of the deposited data

How the results depend on the processing

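The calls of Klf4 and Klf12 in both genotypes and of Klf15 in knockout, endothelium against podocytes, held in all 13 alternatives. Over the members' fold changes, leaving out a library of the groups compared gave 208 values with the same direction and side of the threshold, 26 reversed, 5 no longer passing and 1 newly passing, and the other alternatives gave 386, 16, 5 and 3. With library size only, 3 members passed between cell types in knockout, and 0 genes passed between genotypes in either cell type. DESeq2's Wald test called 10 genes between genotypes in endothelium and 12 in podocytes, and a mean of at least 5 CPM left 0 and 0. With only the compared libraries, 3 members passed in knockout between cell types and 0 genes between genotypes in podocytes. Leaving out each of the 4 libraries of the groups compared, in turn, gave 769 to 1085 genes and 2 to 3 members between cell types in wild type, 960 to 1809 genes and 3 to 5 members in knockout, and 0 to 0 genes between genotypes in endothelium and 0 to 1 in podocytes. With the median transcript length the ratio of the highest to the lowest member was 271 and 265 in wild-type and knockout endothelium and 175 and 153 in podocytes. The cause of these shifts was not tested.

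The labels do not say that replicate numbers pair libraries, and deviations of same-numbered libraries correlated by −0.13, 0.11, 0.19 and 0.16. With the replicate number as a block, 1831 and 2241 genes and 3 and 5 members passed between cell types in wild type and knockout, with Klf15 (−1.001, edgeR adjusted p = 0.0165) added in wild type, and 0 members passed between genotypes. The crossed pairing gave 1357 and 1578 genes and 2 and 5 members.

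The values that changed sign had adjusted p-values above the threshold in the main comparison. In endothelium against podocytes they were Klf9 in wild type, at 0.0061 with library size only, 0.030 with only the compared libraries and 0.0067 without mitochondrial genes, and Klf10 in knockout, at 0.18 with library size only and 0.083 at a mean of at least 5 CPM. In knockout against wild-type endothelium, Klf12 was −0.035 with DESeq2's size factors and with DESeq2 and −0.0052 without mitochondrial genes, Klf10 was 0.12 with library size only, and Klf13 was 0.19 with library size only and 0.012 at 5 CPM. In podocytes Klf9 was 0.085 with library size only and 0.025 at 5 CPM, and Klf13 was 0.00026 with library size only. For the interaction Klf13 was 0.19 with library size only and 0.059 at 5 CPM. With each library of the groups compared left out, the reversed values between cell types ran, in knockout, from −0.62 to 0.73 for Klf10, −0.88 to 1.35 for Klf3 and −0.87 to 0.032 for Klf9, and in wild type from −0.22 to 0.093 for Klf9. Between genotypes in endothelium they ran from −0.21 to 0.24 for Klf12 and −1.96 to 0.47 for Klf3. In podocytes they ran from −0.50 to 0.85 for Klf10, −1.40 to 0.75 for Klf2, −0.27 to 0.67 for Klf3, −0.12 to 0.26 for Klf5, −0.43 to 0.12 for Klf6 and −0.56 to 0.35 for Klf9. For the interaction they ran from −1.07 to 0.29 for Klf10, −0.15 to 0.063 for Klf13, −1.12 to 0.997 for Klf2, −2.24 to 0.20 for Klf3 and −0.79 to 0.11 for Klf9.

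With 2 libraries a group, fits without a library rest on the spread of the other groups. Of 30 nearest genes, 27 were the same at a mean of at least 1 CPM.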
